A study of Homo sapiens with 4 samples.

Results

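Untreated 8505C cells were compared with untreated SW1736 cells, both of them lines derived from anaplastic thyroid cancer, to describe how the starting transcriptomes of these models differ. Untreated means vehicle: each line was given DMSO for 24 h, in RPMI-1640 medium with 10% fetal bovine serum. The comparison took in every gene whose TPM averaged 1 or more in the 2 DMSO libraries, which left 13075 genes of 26485 gene identifiers in the tables. TPM is a gene's share of all transcripts after scaling for transcript length, so levels can be set side by side between genes within a library. A fold is log2((8505C TPM + 1)/(SW1736 TPM + 1)), which understates the difference of low genes. Each line had 1 DMSO library and 1 library after 24 h with 1.5 µM DHT, here dihydrotanshinone, a compound of Salvia root, and not the androgen. With 1 library a group there is no test, and a difference between the lines cannot be told apart from one between cultures or library preparations. The pair of DHT libraries comes from the same lines and shares no library with the DMSO pair, so its values are given beside those of the untreated cells, as a second reading under another condition and not as a replicate.

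Thyroid follicular cells are specified by the joint presence of 4 transcription factors, PAX8, NKX2-1, FOXE1 and HHEX. Together they drive the genes of hormone synthesis, such as those for thyroglobulin (TG), the thyrotropin receptor (TSHR) and the sodium iodide symporter (SLC5A5). Anaplastic thyroid cancer is known for the loss of this program and for a spindle or mesenchymal appearance, with vimentin and matrix genes expressed beside a remnant of simple keratins. Here the identity of a line means only which thyroid factors, keratins, matrix genes and other cell type markers it transcribes.

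The promoters of the 3 thyroid factors that were present in one line and near or at 0 in the other are shown first, as the 250 bases upstream of the start in RefSeq (GRCh38.p14), 5′ to 3′ on the strand of the gene, with each CG pair in capitals.
PAX8 promoter, chr2:113278922-113279171, minus strand: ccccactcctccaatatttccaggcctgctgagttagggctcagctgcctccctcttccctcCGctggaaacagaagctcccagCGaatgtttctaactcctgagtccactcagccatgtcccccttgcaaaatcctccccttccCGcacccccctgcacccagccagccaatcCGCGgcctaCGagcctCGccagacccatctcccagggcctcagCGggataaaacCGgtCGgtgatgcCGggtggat
FOXE1 promoter, chr9:97852976-97853225, plus strand: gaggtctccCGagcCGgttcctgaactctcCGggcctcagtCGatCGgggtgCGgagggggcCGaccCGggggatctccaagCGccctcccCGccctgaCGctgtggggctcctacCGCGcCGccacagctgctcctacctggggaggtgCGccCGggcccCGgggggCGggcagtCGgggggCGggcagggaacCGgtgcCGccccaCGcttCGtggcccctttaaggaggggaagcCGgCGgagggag
NKX2-1 promoter, chr14:36520233-36520482, minus strand: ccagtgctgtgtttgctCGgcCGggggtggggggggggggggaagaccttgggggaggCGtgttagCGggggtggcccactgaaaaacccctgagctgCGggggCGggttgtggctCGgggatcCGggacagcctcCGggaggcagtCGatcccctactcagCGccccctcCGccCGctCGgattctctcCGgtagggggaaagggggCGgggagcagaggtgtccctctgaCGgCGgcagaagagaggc
The PAX8 stretch held 11 CG pairs, that of FOXE1 26 and that of NKX2-1 18. Their ratios of observed to expected CG were 0.52, 0.73 and 0.61, and 47.4% of 27305 genes in that table had a ratio of at least 0.6. The NKX2-1 stretch shown is that of the first of 2 starts. The 250 bases upstream of the second start held 7 CG pairs, with a ratio of 0.46. Whether any of these cytosines were methylated was not measured.

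Of the 13075 genes compared, 1279 (9.78%) stood at least 2-fold higher in untreated 8505C and 1757 (13.4%) at least 2-fold lower, and these shares are the background for each group of genes. A 4-fold difference was reached by 519 genes in the upward and 550 in the downward direction. The median fold of all genes was -0.07, and 7345 genes (56.2%) lay within 1.5-fold. The 2-fold line itself was crossed narrowly by 503 genes, which exceeded it by less than 1.1 times. In the DHT pair the same genes had a median of 0.36, with 3158 (24.2%) higher in 8505C and 1401 (10.7%) lower. For counts in the DHT pair the background is these shares and this median. Of the 1279 higher genes 1148 (89.8%) were also 2-fold higher in the DHT pair, and of the 1757 lower genes 976 (55.5%) were also lower. With each pair centred on its own median these shares were 76.6% and 75.2%. Past 4-fold the shares were 95.8% and 92.2%. Of the genes compared, 23.9% (22.2% of those 2-fold apart) had several rows in the tables or overlapped another expressed gene, so that reads may have been shared. A gene also had to have a mean of 1 TPM to be compared, so a member near 0 in one line was compared only if it was high in the other. The filter thus fixed the direction of such members in each gene list below. Among the genes described below, reads may have been shared for PAX8, THRA, KRT8, KRT18, VIM, ESRP2, ITGA1, ITGB8, LAMB3, GATA2, H19, MEST, B2M, HLA-C, DLL1, JAG2, SCG5, CDKN2B, MCM7, NR2F2, PITX1, MAGEA12, C16orf70, B3GNT9, FBXL8, HSF4, NOL3, KIAA0895L, GNGT2, ABI3, RPL8, RPL10, RPL30 and RPL36A. The lines were sequenced to similar depth: the ratio of coverage to FPKM gave 3.67 Gb of aligned bases for SW1736 and 3.27 Gb for 8505C with DMSO, and read numbers are not known, so no counting interval is given.

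**Figure D1:**
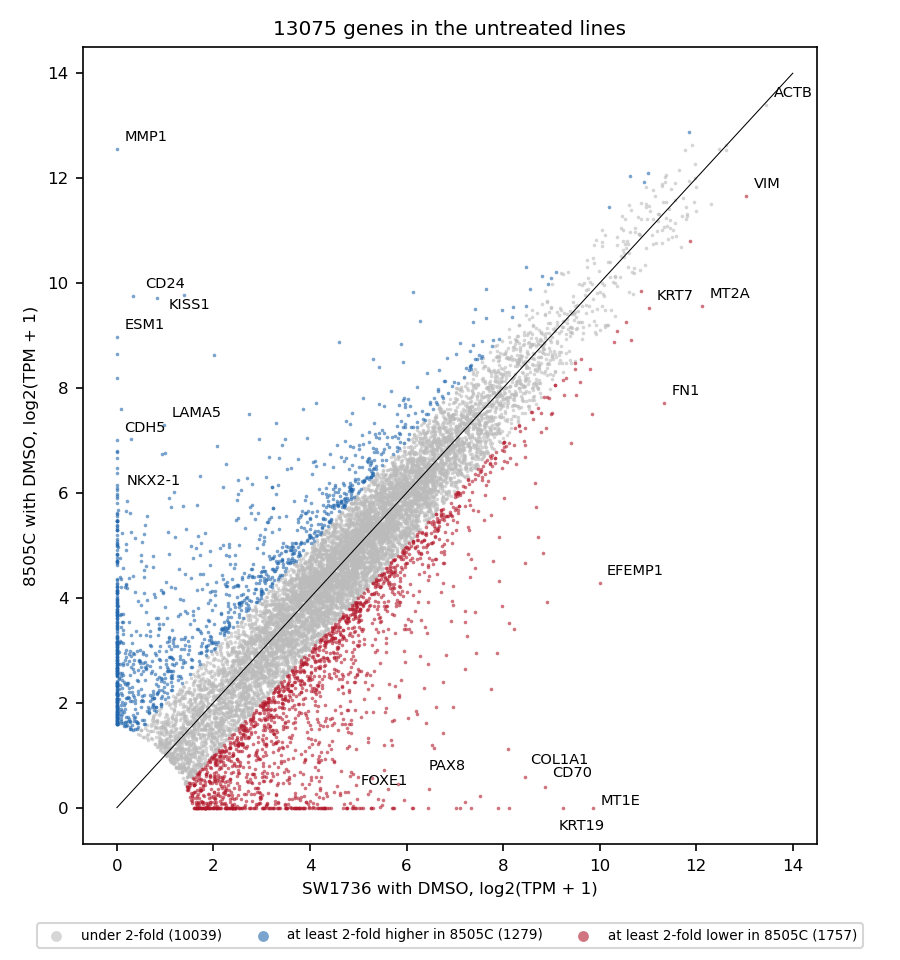
Expression of 13075 genes in untreated SW1736 (horizontal) and untreated 8505C (vertical), both as log2(TPM + 1), 1 library each. The diagonal marks equal levels. Blue points are the 1279 genes at least 2-fold higher in 8505C and red points the 1757 at least 2-fold lower. MMP1 stands alone at 6015 TPM in 8505C and 0 in SW1736, and MT1E and KRT19 lie on the lower axis.

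The 4 thyroid transcription factors were split between the lines. Here and below, where 2 levels are given without naming the libraries, they are those of untreated SW1736 first and untreated 8505C second. PAX8 stood at 87.1 TPM in SW1736 against 0.282 in 8505C with DMSO, and 117 against 0.24 with DHT, a fold of -6.10 with DMSO. FOXE1 had 60.6 TPM in SW1736 against 0.101 in 8505C with DMSO, and 22.3 against 0 with DHT, a fold of -5.81. NKX2-1 was reversed: it was listed at 0 in both SW1736 libraries and stood at 69.8 TPM in 8505C with DMSO and 174 with DHT. For these 3 genes the libraries of the lines did not overlap, and the lower line was at or under 0.282 TPM. HHEX, the fourth factor, was present in both, at 28.3 TPM in SW1736 against 13.5 in 8505C with DMSO, and 33.3 against 13.5 with DHT, and its fold of -1.01 lies just past the 2-fold line. Neither line had all 4 factors above 1 TPM. In the coordinates of the deposited tables (hg38) PAX8 lies on chromosome 2 from 113215997 to 113278921, FOXE1 on chromosome 9 from 97853255 to 97856715 and NKX2-1 on chromosome 14 from 36516399 to 36520225. PAX8-AS1, whose gene overlaps PAX8, was at 4.29 TPM in SW1736 against 1 in 8505C, and without strand information reads of the overlap cannot be assigned.

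Neighbours of NKX2-1 on chromosome 14 were also higher in 8505C. SFTA3, the adjacent surfactant-associated gene, was listed at 0 in SW1736 and at 40.2 TPM in 8505C. NKX2-8, a homeobox gene of the same family, was listed at 0 and at 5.76 TPM with DMSO. NKX2-1-AS1 was listed at 0 and at 1.92 TPM, but it overlaps NKX2-1 on the other strand, so its reads cannot be told apart from those of NKX2-1. PAX9, a paired box factor, was at 0.66 and 5.98 TPM. MBIP, a kinase-binding gene on the other side, was under 2-fold at 20.9 and 41.2 TPM. The genes from SFTA3 to PAX9 were thus at most 0.913 TPM in either SW1736 library.

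Most thyroid differentiation genes were at or near 0 in both lines. Of 18 listed genes 5 had a mean of at least 1 TPM, and 4 of these were at least 2-fold lower in 8505C, with a median fold of -1.97 beside -0.07 for all genes. TG, TSHR, SLC5A5, SLC5A8, TFF3, DUOX2, DUOXA1, DUOXA2 and IYD were listed at 0 in both DMSO libraries. SLC5A5 stood at 2.39 TPM in SW1736 with DHT and at 0 in both 8505C libraries. SLC26A4, the pendrin gene, DUOX1 and DIO1 were at most 0.378 TPM in any library. What was measured concerned hormone handling more than its synthesis. DIO2, the deiodinase that activates thyroid hormone, stood at 7.61 TPM in SW1736 against 0.066 in 8505C with DMSO, and 2.18 against 0.0426 with DHT. THRB, a thyroid hormone receptor, followed the same pattern at 7.62 TPM in SW1736 against 0.0458 in 8505C with DMSO, and 2.83 against 0.0356 with DHT. GLIS3, a zinc finger factor needed for thyroid hormone synthesis, was at 13.5 and 3.2 TPM with DMSO. THRA, the other receptor, was at 37.4 and 32.1 TPM, under 2-fold. DIO2 and THRB were under 1 TPM in untreated 8505C and compared only through SW1736, so the filter fixed their direction. The defining products of the thyrocyte were thus listed at 0 in both untreated lines, and the labelled thyroid origin could not be checked against them.

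**Figure D2:**
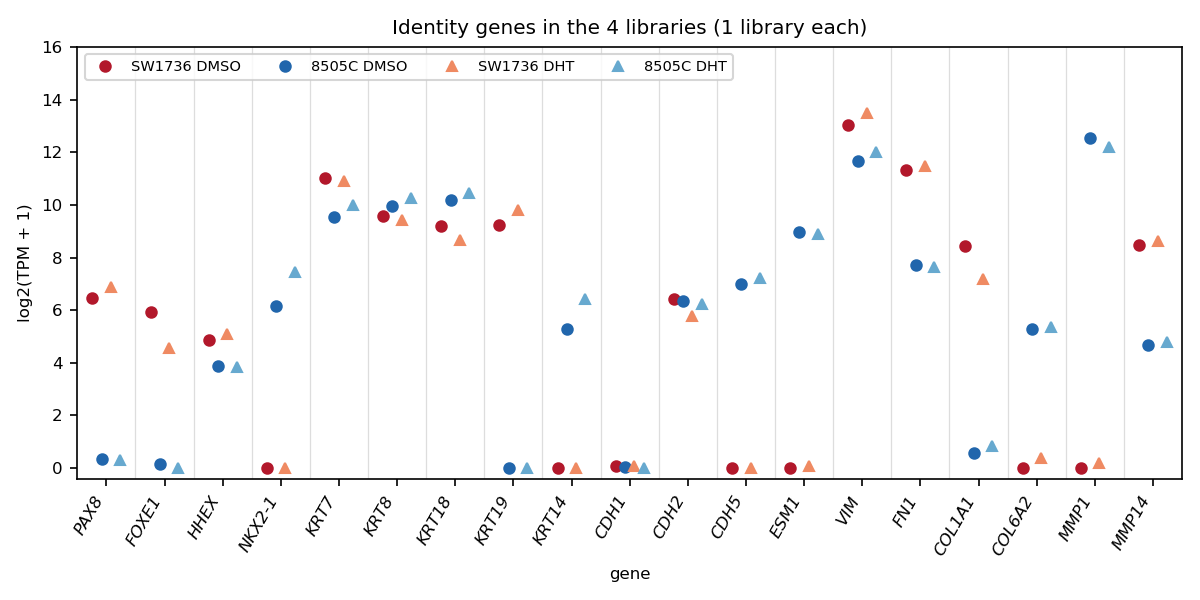
Levels of 19 identity genes as log2(TPM + 1) in the 4 libraries, circles for DMSO and triangles for DHT, red for SW1736 and blue for 8505C, 1 library each. PAX8, FOXE1, KRT19 and COL1A1 are high in both SW1736 libraries and at or near 0 in both of 8505C, whereas NKX2-1, KRT14, CDH5, ESM1, COL6A2 and MMP1 show the reverse, and CDH1 is near 0 in all 4.

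Keratins, the intermediate filaments of epithelia, differed by member. Of 9 measured keratins 2 were at least 2-fold higher in 8505C and 4 lower, with a median fold of 0.41. KRT19, a keratin of simple epithelia often used as a thyroid carcinoma marker, stood at 607 TPM in SW1736 with DMSO and 883 with DHT, and was listed at 0 in both 8505C libraries. KRT14, a basal keratin, was listed at 0 in both SW1736 libraries and at 38.1 and 85.5 TPM in 8505C, and KRT17, also of basal cells, at 0 and 5.06 TPM with DMSO. KRT7 was abundant in both at 2081 TPM in SW1736 against 734 in 8505C, a fold of -1.50 that shrank to -0.91 in the DHT pair. KRT8 and KRT18, the simple keratin pair, were abundant in both lines: KRT8 at 755 and 1006 TPM, KRT18 at 585 and 1170.1. Both lines thus kept simple keratins, and KRT19 and KRT14 were each confined to the libraries of 1 line. KRT14, KRT17 and KRT19 lie in one keratin cluster on chromosome 17, and close relatives there may share reads.

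Epithelial junction genes went both ways. Of 22 measured members 8 (36.4%) were 2-fold or more higher in 8505C, beside 9.78% of all genes, and 4 were lower, with a median fold of 0.36. Of the 22, 4 were under 1 TPM in untreated SW1736 and 4 in untreated 8505C, so the filter fixed the direction of these. The 8 higher genes were 2-fold higher in the DHT pair too. Among the 8, DSC3, a desmosomal cadherin, was listed at 0 in SW1736 and at 41.1 TPM in 8505C, DSC2 at 0 and 6.31, DSG2 at 21.8 and 67.8, and the junction protein gene JUP at 21.8 and 63.6. CD24, which encodes a surface glycoprotein of epithelial and progenitor cells, had 0.255 TPM in SW1736 against 859 in 8505C with DMSO, and 0.393 against 922 with DHT, a fold of 9.42. On the other side, CLDN11, a claudin, was at 14.7 and 0.00287 TPM, SPINT1, an inhibitor of epithelial proteases, at 8.89 and 0.195, and ESRP2, an epithelial splicing regulator, at 2.8 and 0.0823. CDH1, which encodes E-cadherin, was at most 0.0631 TPM and EPCAM at most 0.184 TPM in any library. CLDN1, of tight junctions, was under 2-fold at 81.4 and 64.7 TPM.

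Mesenchymal genes were expressed in both lines, by different members. Of 27 measured genes and factors of the epithelial to mesenchymal transition 7 were at least 2-fold higher in 8505C and 8 lower, and all but 1 of these 15 were so in the DHT pair as well. VIM, the vimentin gene, was among the most abundant genes of SW1736 at 8401 TPM in SW1736 against 3241 in 8505C with DMSO, and 11431 against 4076 with DHT, a fold of -1.37. FN1, which encodes fibronectin, was at 2583 TPM in SW1736 against 209.9 in 8505C with DMSO, and 2827 against 201 with DHT, a fold of -3.62. MYL9, a myosin light chain of contractile cells, was at 454 and 28.1 TPM, and CDH11, a mesenchymal cadherin, at 37.2 TPM and 0. CDH2, which encodes N-cadherin, was level at 83.9 and 81.5 TPM. The transcription factors of this list were shared out: SNAI2 stood at 10.8 TPM in SW1736 against 0.463 in 8505C, whereas TWIST1 was listed at 0 and at 14.6, FOXC2 at 0 and 58.8, and ZEB2 was at 0.88 and 16.7. Tenascin C (TNC), a matrix protein of stroma and wounds, was at 5.47 and 77 TPM, and endoglin (ENG), a co-receptor for TGF-beta, at 33.2 and 222.

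Collagens, the fibrous and sheet-forming proteins of the matrix, were lower in 8505C more often than all genes. Of 21 measured collagen genes 11 (52.4%) were at least 2-fold lower, beside 13.4% of all genes, and 5 were higher, with a median fold of -1.65. In the DHT pair 8 of the 11 and all 5 were again 2-fold apart. There 7 genes were higher and 8 lower in all, and the median was -0.09, beside 0.36 for all genes. Of the 21, 7 were under 1 TPM in untreated 8505C and 4 in untreated SW1736, so the filter fixed the direction of these. COL1A1 and COL1A2 encode the chains of type I collagen, and COL1A1 lies on chromosome 17 from 50184096 to 50201639. COL1A1 stood at 349.9 TPM in SW1736 against 0.496 in 8505C with DMSO, and 146 against 0.773 with DHT, a fold of -7.87. COL1A2 was at 237 TPM in SW1736 with DMSO and 136 with DHT, and was listed at 0 in both 8505C libraries. The chains of type VI collagen parted: COL6A3 was at 42.8 and 0.0132 TPM, COL6A1 at 6.63 and 48, and COL6A2 at 0 and 38.3. COL7A1, which encodes the anchoring fibril collagen, was at 25.6 and 0.222 TPM. COL16A1 and COL27A1 had folds of -3.47 and -3.44. COL4A2, a basement membrane chain, was under 2-fold at 242 and 139.5 TPM.

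COL4A5 and COL4A6, which encode further basement membrane chains, were present in 8505C and near or at 0 in SW1736. COL4A5 stood at 0.0564 TPM in SW1736 against 19.6 in 8505C with DMSO, and 0 against 20.9 with DHT. COL4A6 was listed at 0 in both SW1736 libraries and at 18.6 and 23.3 TPM in those of 8505C. These genes lie head to head on chromosome X, with starts 380 bases apart in RefSeq, and moved together, so the 250 bases upstream of each start are shown on the strand of the gene, with CG in capitals. The stretches overlap in the genome.
COL4A5 promoter, chrX:108439588-108439837, plus strand: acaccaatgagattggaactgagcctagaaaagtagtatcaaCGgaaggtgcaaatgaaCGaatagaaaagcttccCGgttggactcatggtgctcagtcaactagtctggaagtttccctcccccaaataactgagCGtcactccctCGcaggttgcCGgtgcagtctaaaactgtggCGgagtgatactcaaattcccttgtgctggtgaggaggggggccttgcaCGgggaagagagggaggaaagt
COL4A6 promoter, first start, chrX:108439459-108439708, minus strand: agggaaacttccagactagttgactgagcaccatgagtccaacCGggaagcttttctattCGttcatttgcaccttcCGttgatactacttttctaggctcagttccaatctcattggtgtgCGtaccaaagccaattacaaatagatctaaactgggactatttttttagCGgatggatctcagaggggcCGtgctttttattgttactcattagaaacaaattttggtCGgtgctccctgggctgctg
They held 8 and 7 CG pairs, with ratios of observed to expected CG of 0.50 and 0.58.

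Other matrix genes and their receptors followed no single direction. Of 32 measured matrix glycoproteins and proteoglycans 7 were at least 2-fold higher and 10 lower in 8505C, with a median fold of -0.23. EFEMP1, which encodes fibulin-3, had 1026 TPM in SW1736 against 18.4 in 8505C with DMSO, and 1066 against 16.7 with DHT, a fold of -5.73. Versican (VCAN) was at 83.9 and 2.06 TPM, and LTBP2, which encodes a protein of elastic fibres, at 64.6 and 2.29. In the other direction FBN2, which encodes a fibrillin of developing microfibrils, was listed at 0 in both SW1736 libraries and at 60.4 and 57.3 TPM in 8505C. FBLN1 (fibulin-1) was at 7.56 and 77.6 TPM and CSPG4, a surface proteoglycan, at 8.79 and 62.3.

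Of 23 measured integrins and laminins, which anchor cells to basement membrane, 5 were higher and 6 lower. LAMA5, the alpha 5 laminin chain, was at 0.98 TPM in SW1736 against 156 in 8505C with DMSO, and 1.03 against 174 with DHT, a fold of 6.31. LAMA1 was at 0.483 and 22 TPM. The laminin 332 chains went the other way, with LAMB3 at 120.3 and 10.8 TPM and LAMA3 at 8.78 and 1.35. Among integrin chains ITGB8 was at 21.4 and 0.224 TPM and ITGA1 at 1.18 and 17.4, whereas ITGB1, the common partner of many alpha chains, was under 2-fold at 792 and 485. LAMA4 was expressed in both lines, at 75.1 and 20.9 TPM, a fold of -1.80.

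Matrix proteases and their inhibitors held the largest single difference. Of 35 measured members 9 were 2-fold or more higher and 8 lower, with a median fold of -0.03. MMP1, an interstitial collagenase that cuts type I collagen, was listed at 0 in SW1736 with DMSO and at 0.143 TPM with DHT, and stood at 6015 and 4764 TPM in 8505C. It lies on chromosome 11 from 102789910 to 102798235 and was among the 10 most abundant genes of 8505C. Its neighbours on chromosome 11 were far lower there: MMP3, a stromelysin, was listed at 0 in SW1736 and at 7.63 TPM in 8505C, MMP10 at 0 and 1.52, and MMP12 at 0 and 0.733. MMP14, the membrane-bound collagenase, was the highest of the proteases of SW1736 named here at 351 TPM in SW1736 against 24.4 in 8505C with DMSO, and 392 against 26.9 with DHT, a fold of -3.79. ADAMTS5, an aggrecanase, was at 19.1 and 0.207 TPM and MMP2, a gelatinase, at 12.5 and 2.96. Inhibitors differed too: TIMP3 was at 0.677 and 23 TPM, TIMP1 at 886 and 327, and SERPINE2, a serine protease inhibitor, at 42.1 and 338. High transcripts of type I collagen and MMP14 were thus found in one line and those of MMP1 in the other.

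Metallothioneins are small metal-binding proteins that buffer zinc and copper, and their genes lie in one cluster on chromosome 16. Of 6 measured members 5 were at least 2-fold lower in 8505C and 1 higher. The median fold was -2.31 in the DMSO pair and -2.45 in the DHT pair. Of the 6, 3 were under 1 TPM in untreated 8505C and 1 in untreated SW1736, so the filter fixed the direction of these. MT1E stood at 932 and 885 TPM in SW1736 and was listed at 0 in both 8505C libraries, as was the pseudogene MT1L, at 160.3 TPM in SW1736 with DMSO. MT2A, the main member, had 4463 TPM in SW1736 against 757 in 8505C with DMSO, and 5358 against 749.6 with DHT, a fold of -2.56. MT1X was at 130.4 TPM in SW1736 against 42.8 in 8505C with DMSO, and 181 against 42.6 with DHT, a fold of -1.58. MT1M and MT1F were listed at 0 in 8505C and stood at 11.2 and 3.18 TPM in SW1736, and MT1A was the exception, at 0 and 2.62. These genes are near-identical copies, so the division of reads among them is uncertain. The genes that flank the cluster, BBS2 and NUP93, were under 2-fold, at 20.9 and 22.3 and at 99.8 and 85.8 TPM.

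The promoters of MT2A and MT1X, the metallothioneins expressed in both lines with an entry in the promoter table, are shown because such genes are known to answer to metal through short repeated elements. The 250 bases upstream of each start were searched on both strands for TGCACNC or TGCGCNC, where N is any base, and each match is in capitals (a match on the other strand appears as its reverse complement). Matches can overlap.
MT2A promoter, chr16:56608334-56608583, plus strand: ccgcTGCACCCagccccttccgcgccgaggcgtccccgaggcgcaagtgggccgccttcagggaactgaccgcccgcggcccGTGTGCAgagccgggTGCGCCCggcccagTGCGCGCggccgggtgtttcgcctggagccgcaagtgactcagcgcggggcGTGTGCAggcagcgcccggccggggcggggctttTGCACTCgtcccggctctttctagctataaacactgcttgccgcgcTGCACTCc
MT1X promoter, chr16:56682220-56682469, plus strand: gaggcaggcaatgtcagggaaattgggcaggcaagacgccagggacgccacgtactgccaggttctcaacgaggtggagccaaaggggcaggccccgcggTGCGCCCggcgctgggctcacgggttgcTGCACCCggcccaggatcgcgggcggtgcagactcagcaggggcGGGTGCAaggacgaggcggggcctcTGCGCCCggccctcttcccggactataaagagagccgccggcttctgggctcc
MT2A held 7 matches and MT1X 4. At least 1 match was found in 24.7% of 27305 genes with a stretch of the same length, and 3 or more in 1.56%. A match is a run of letters and not a measured binding site.

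Markers of cell types other than thyroid were read as a check on identity. All 7 measured endothelial markers of 19 listed were at least 2-fold higher in 8505C, in both pairs of libraries. Of these 7, 6 were under 1 TPM in untreated SW1736 and so were compared only because they were high in 8505C, which fixed their direction, and the other was EGFL7. The sum over these 7 was 8.35 TPM in SW1736 and 785 in 8505C with DMSO, and 9.05 and 814 with DHT. ESM1, which encodes a proteoglycan secreted by endothelium, was listed at 0 in SW1736 with DMSO and stood at 503 and 480.1 TPM in 8505C. CDH5, which encodes VE-cadherin, was listed at 0 in both SW1736 libraries and at 128 and 147 TPM in 8505C. The receptor genes TIE1 and FLT1 were listed at 0 in SW1736 and at 43.4 and 35.7 TPM in 8505C, and EGFL7, a secreted vascular factor, was at 8.29 and 67.8. Among the other listed markers KDR, SOX17 and FLT4 were listed at 0 in all 4 libraries, while ERG and VWF were at most 0.0593 and 0.0141 TPM, and PECAM1 and TEK at most 0.207 and 0.414. Some endothelial markers, CDH5 and TIE1 among them, were thus high in 8505C and others were at or near 0 in both lines. In such bulk libraries fewer cells of a type and less RNA per cell cannot be told apart, and whether another cell type contributed was not tested.

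Of 20 immune markers 3 were measured. CD68, of lysosomes and macrophages, was at 13.3 and 49.6 TPM, CD14 was under 2-fold at 2.04 and 1.32, and NCAM1, a marker of natural killer and neural cells, was at 21.6 and 0.847. PTPRC, the pan-leukocyte gene, was at most 0.0498 TPM in any library. Of 15 C cell and neuroendocrine markers 3 were measured: the secretogranin SCG2 was at 52.3 and 2.17 TPM and SCG5 at 10.1 and 0. CALCA, the calcitonin gene of C cells, was listed at 0 in all 4 libraries. Of 16 melanocyte and neural markers 4 were measured, TUBB3 being highest at 277 and 122 TPM.

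Other transcription factors of development were split between the lines as well. Of 43 measured developmental factors outside the thyroid and HOX lists 11 (25.6%) were at least 2-fold higher and 16 (37.2%) lower in 8505C. The shares of all genes were 9.78% and 13.4%, and the median fold of the list was -0.63. Of the 43, 9 were under 1 TPM in untreated SW1736 and 7 in untreated 8505C, so the filter fixed the direction of these. GATA3, a factor of epithelial and lymphoid lineages, had 26.7 TPM in SW1736 against 0.224 in 8505C with DMSO, and 19.9 against 0.0708 with DHT, whereas its relative GATA2 was listed at 0 in SW1736 with DMSO and at 25 TPM in 8505C, with 0.084 and 60.2 TPM in the DHT pair. SOX9, a factor of cartilage and progenitor cells, was at 104 TPM in SW1736 against 16.4 in 8505C with DMSO, and 216 against 20.4 with DHT, a fold of -2.59. FOXQ1 was at 17.9 TPM and 0, FOXD1 at 53.1 and 3.99, and FOXF1 at 19.9 and 1.3. EYA4, a transcriptional cofactor gene, was listed at 0 in SW1736 with DMSO and at 7.38 TPM in 8505C. PITX1 and NR2F2 were expressed in both lines, under 2-fold.

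HOX genes, which record position along the body axis, were low in both lines, and none of the HOXD cluster was measured. Of the HOXC cluster 5 were measured and 3 were higher in 8505C, among them HOXC9 at 0.161 and 4.04 TPM and HOXC10 at 0 and 3.56. HOXC8 was highest at 8.54 and 4.27 TPM, under 2-fold. HOXB9 was listed at 0 in SW1736 and at 5.35 TPM in 8505C, and HOXA11 at 2.54 TPM and 0. These levels lie close to the limit of 1 TPM.

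Some cancer testis genes and imprinted genes also differed. Cancer testis genes, expressed in germ cells and in some tumours, were on the side of 8505C: 10 of 11 measured were at least 2-fold higher, 1 was lower, and the median fold was 3.15, with the same counts in the DHT pair. Of the 11, 6 were under 1 TPM in untreated SW1736 and 1 in untreated 8505C, so the filter fixed the direction of these. All 11 lie on chromosome X, where the median fold of protein-coding genes was -0.77. MAGEA1 was listed at 0 in both SW1736 libraries and at 33.1 and 33.2 TPM in 8505C. MAGEA3 was at 9.7 TPM in SW1736 against 119.7 in 8505C with DMSO, and 8.81 against 118 with DHT, MAGEA12 at 1.26 and 63.6, and CSAG1 at 1.16 and 52.4. MAGEA11 was the exception, at 13.8 TPM in SW1736 against 0.874 in 8505C with DMSO, and 9.34 against 0.801 with DHT. Members of the MAGEA family are close copies and some overlap CSAG genes, so reads may be divided among them.

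Of 17 measured imprinted genes 4 were higher and 4 lower. PEG10 and SGCE, paternally expressed neighbours on chromosome 7, were at 137 and 68.9 TPM in SW1736 and listed at 0 in both 8505C libraries. MEST, also on chromosome 7, was at 26.9 and 2.01 TPM. H19, a maternally expressed non-coding RNA, was at 0 and 19.4 TPM, and IGF2R at 44.6 and 108. GNAS was abundant in both at 1362 and 1111 TPM. The enzymes of DNA methylation were close: DNMT1 was at 199.5 and 127 TPM and UHRF1 at 177 and 133, and of 8 measured genes for DNA methylation and its removal only TET2 passed 2-fold, at 3.25 and 7.94.

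Immune signalling genes differed in some members but not in most. Of 23 measured antigen presentation genes 3 were higher and 3 lower, with a median fold of 0.07. CD274, which encodes the checkpoint ligand PD-L1, was at 8.81 TPM in SW1736 against 160.4 in 8505C with DMSO, and 17.3 against 151 with DHT, a fold of 4.04. B2M was under 2-fold, at 832 and 876 TPM, and HLA-C was at 497 and 223. Of 34 measured interferon-stimulated genes 7 were higher and 7 lower, and 11 and 5 in the DHT pair. IFITM2, which encodes a membrane protein that restricts viral entry, was at 1.63 TPM in SW1736 against 870.4 in 8505C with DMSO, and 1.43 against 998 with DHT, a fold of 8.37, and its close copy IFITM1 at 25.7 and 165. OAS2 and OASL, of the antiviral synthetase family, were on the other side at 12.4 and 0.134 TPM and at 7.34 TPM and 0.

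Cytokines and growth factors split widely. Of 33 measured cytokine and chemokine genes and receptors 10 (30.3%) were higher and 12 (36.4%) lower, beside 9.78% and 13.4% of all genes. Of the 33, 6 were under 1 TPM in untreated SW1736 and 4 in untreated 8505C, so the filter fixed the direction of these. CD70, a TNF family ligand of T and B cells, stood at 463 TPM in SW1736 against 0.307 in 8505C with DMSO, and 420.1 against 0.238 with DHT, a fold of -8.47. LIF, a cytokine of the IL-6 family, was at 107 TPM in SW1736 against 1.7 in 8505C with DMSO, and 128 against 1.39 with DHT, while its receptor gene LIFR was at 4.74 and 31 TPM, the opposite direction. CD40, a TNF receptor family gene, was at 86.6 TPM in SW1736 with DMSO and listed at 0 in both 8505C libraries. The neutrophil chemokine genes CXCL1 and CXCL8 were higher in 8505C, at 4.7 and 74.9 and at 2.32 and 79.3 TPM. CXCL8 in SW1736 was at 62.9 TPM with DHT, which left a fold of 0.85 in that pair.

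Of 39 measured growth factor genes 13 were higher and 13 lower, a share of 33.3% each way beside 9.78% and 13.4%. Of the 39, 7 were under 1 TPM in untreated SW1736 and 6 in untreated 8505C, so the filter fixed the direction of these. KISS1, which encodes the kisspeptin precursor, had 0.775 TPM in SW1736 against 837 in 8505C with DMSO, and 0.597 against 923 with DHT, a fold of 8.88. EDN1 (endothelin-1) was at 0.905 and 106 TPM, and AREG, which encodes the EGF receptor ligand amphiregulin, at 0.305 TPM in SW1736 against 34.5 in 8505C with DMSO, and 0.614 against 58.5 with DHT. NMU, a neuropeptide gene, was listed at 0 in both SW1736 libraries and at 27.6 TPM in 8505C. INHBA, which encodes an activin subunit, was on the side of SW1736 at 275 TPM in SW1736 against 1.18 in 8505C with DMSO, and 371 against 1.32 with DHT, a fold of -6.99, and INHBB at 36.9 and 0.24. FST and FSTL3, whose products bind activin, were lower in 8505C too, at 35.2 and 4.91 and at 52.9 and 22.9 TPM. GAS6, the ligand of AXL, was at 151 and 8.61 TPM, with AXL itself level at 712 and 631.

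Receptor tyrosine kinases differed by member. Of 25 measured receptors 7 were higher and 6 lower, and in the DHT pair 11 and 3. FGFR2 was at 31.3 and 10.8 TPM in SW1736 and listed at 0 in both 8505C libraries, whereas FGFR3 was at 0.0289 and 7.77 TPM. MERTK, a relative of AXL, was at 0.186 and 10.6 TPM. MET, the receptor for hepatocyte growth factor, was at 258 TPM in SW1736 against 96 in 8505C with DMSO, and 132 against 75.8 with DHT, a fold of -1.42 in the DMSO pair and -0.80 in the DHT pair. EGFR was under 2-fold at 116 and 64.2 TPM. FGFR2 and FGFR3 thus went in opposite directions, while EGFR and AXL were expressed in both lines.

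Of 30 measured WNT pathway genes 5 were higher and 10 lower, with a median fold of -0.25. In the DHT pair 9 were higher and 5 lower with a median of 0.33, close to the 0.36 of all genes in that pair. Of the 10 lower genes 4 were again 2-fold lower. SFRP1, a secreted WNT antagonist, was listed at 0 in both SW1736 libraries and at 291 and 349.7 TPM in 8505C. WNT5A, a ligand, was at 15.6 and 0.068 TPM, the receptor gene FZD7 at 42.1 and 3.24, and the antagonist DKK1 at 439 TPM in SW1736 against 142 in 8505C with DMSO, and 181 against 163 with DHT, a fold of -1.62 that was -0.15 in the DHT pair. CTNNB1 was level. Of 19 measured NOTCH genes 6 were higher and 4 lower, with DLL1 at 4.28 TPM and 0, JAG2 at 2.02 and 11, and the target HES1 at 15.5 and 3.88. Of 29 measured TGF-beta and BMP genes 5 were higher and 5 lower, among them the co-receptor TGFBR3 at 1.08 and 36.9 TPM.

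Output genes of the ERK and YAP pathways had medians close to that of all genes. Of 26 genes whose transcripts follow ERK signalling 5 were higher and 2 lower, with a median fold of 0.03, whereas in the DHT pair 4 were higher and 8 lower. DUSP6, a phosphatase of ERK, was at 13 and 39.7 TPM and DUSP5 at 25.5 and 126, while FOSL1 was under 2-fold at 964 and 525. Of 28 measured YAP and TEAD targets 4 were higher and 2 lower, with a median of 0.13, and the main targets CTGF and CYR61 were under 2-fold at 606 and 1153 and at 698 and 863 TPM.

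Of 11 measured genes of cell cycle inhibitors and the 9p21 locus 3 were at least 2-fold lower in 8505C and 0 higher, beside 13.4% and 9.78% of all genes. They were CDKN2A, CDKN2B and CDKN2C, and CDKN2B alone of them was 2-fold lower in the DHT pair. CDKN2C, which encodes the inhibitor p18, was at 104 TPM in SW1736 against 46.5 in 8505C with DMSO, and 41.8 against 47.7 with DHT. CDKN1A, the p21 gene, was under 2-fold at 18.6 and 29.7 TPM. CDKN2A, which encodes the cell cycle inhibitor p16 and p14ARF, was expressed in both lines at 325 TPM in SW1736 against 144 in 8505C with DMSO, and 317 against 159 with DHT, with folds of -1.16 and -0.99, and its neighbour CDKN2B at 16.8 and 2.58. MTAP, the next gene along, was at 51.1 and 44.4 TPM.

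Proliferation, repair and housekeeping genes were close between the lines. Of 40 mitosis genes 1 passed 2-fold, MAD2L1, a spindle checkpoint gene, at 80.3 and 168 TPM, and the median was 0.04. Of 39 replication genes 2 were higher and 1 lower, with MCM4 at 125 and 276 TPM and MCM7 at 540.5 and 266. Of 39 measured genes for cisplatin transport and DNA repair 1 passed 2-fold: ABCC3, an efflux transporter, was at 8.4 TPM in SW1736 and listed at 0 in both 8505C libraries. None of 31 proteasome subunits and 2 of 36 complex I genes did. In the DHT pair 15 of the 40 mitosis genes and 12 of the 39 replication genes were 2-fold higher in 8505C. So were 13 of the 39 transport and repair genes, beside 24.2% of all genes in that pair. The medians of these lists there were 0.74, 0.65 and 0.82, beside 0.36 for all genes. The closeness thus held for the untreated pair.

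Metabolic and protective genes showed more differences. Of 40 measured NRF2 targets and detoxification genes 13 (32.5%) were lower in 8505C and 5 higher, beside 13.4% and 9.78% of all genes. The median fold was -0.51. Of the 40, 2 were under 1 TPM in untreated SW1736 and 4 in untreated 8505C, so the filter fixed the direction of these. AKR1B1, an aldose reductase, was at 674 TPM in SW1736 against 123 in 8505C with DMSO, and 872 against 118 with DHT, a fold of -2.45. ALDH1A3, a retinal dehydrogenase, was at 107 and 4.25 TPM and its relative ALDH1A1 at 0 and 4.18, and GSTM4 at 9.27 TPM and 0 whereas GSTM3 was at 0 and 30.7. Of 28 measured glycolysis and glucose uptake genes 7 were lower and 1 higher. The transporters SLC2A1 and SLC2A3 were at 158 and 53.5 and at 11.4 and 2.79 TPM, LDHB, a lactate dehydrogenase subunit, was the higher one at 357 TPM in SW1736 against 1268 in 8505C with DMSO, and 377 against 1210.2 with DHT, and GAPDH was level. Of 24 cholesterol synthesis genes 6 were higher and 2 lower, with squalene epoxidase (SQLE) at 18.6 and 93.1 TPM.

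Among the 10 most abundant genes of each untreated line, MMP1, MT2A, VIM and RPL8 were at least 2-fold apart and the others under 2-fold. ACTB, the cytoplasmic actin gene, was at 11183 and 10724 TPM, and TMSB10, an actin-binding peptide gene, at 6292 and 6328. Ribosomal protein genes took 17% of TPM in SW1736 and 18.2% in 8505C, and of 79 measured 4 were 2-fold higher and 4 lower, with a median fold of 0.10.

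**Figure D3:**
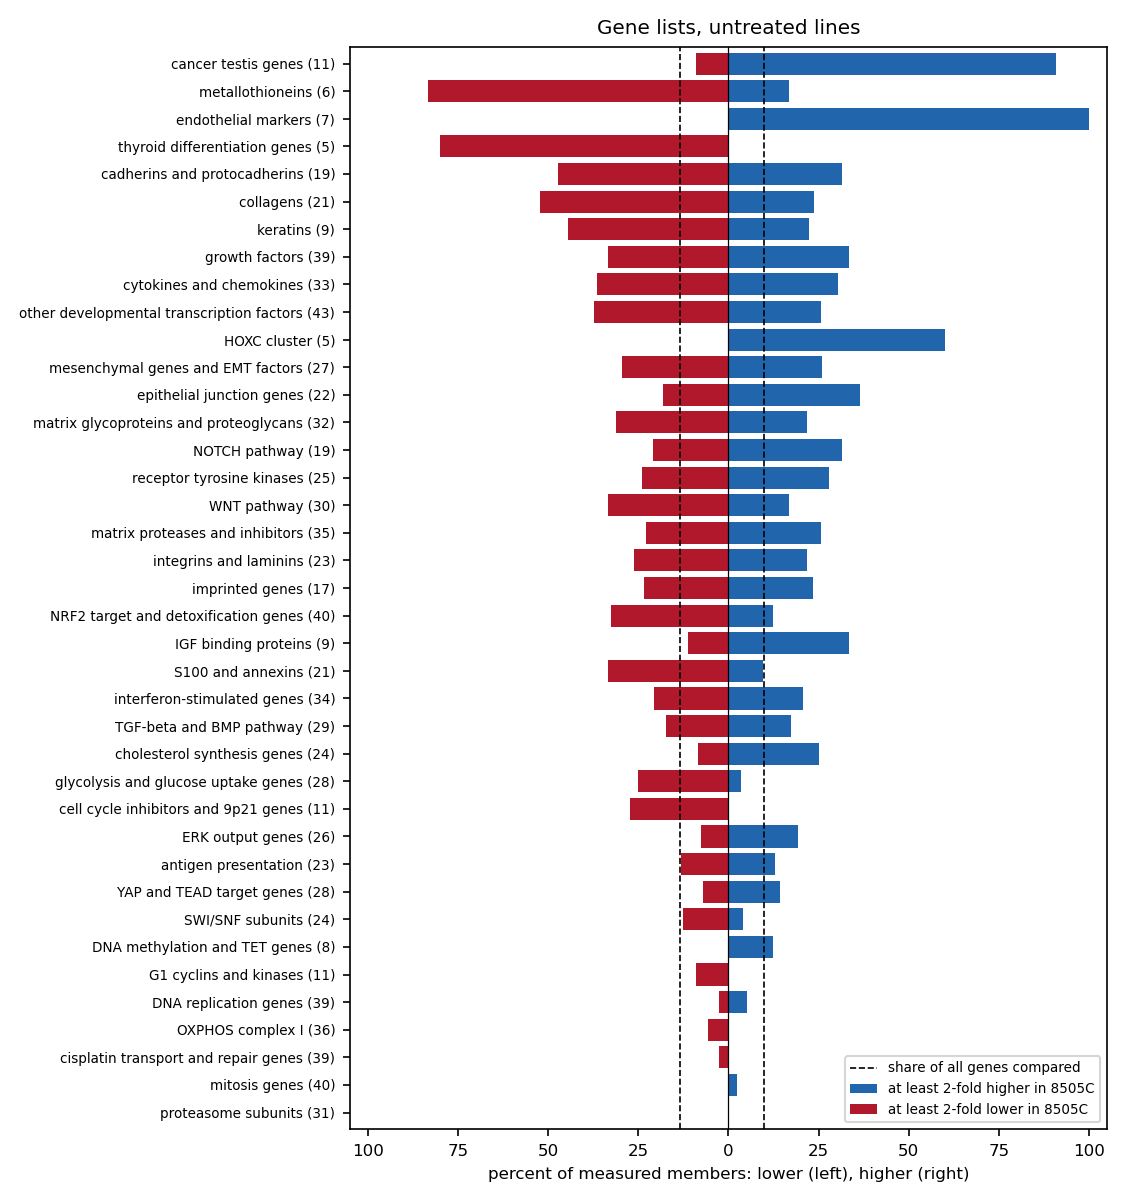
Share of the measured members of the gene lists shown (number in brackets, at least 5 each) that were at least 2-fold lower (red, left) or higher (blue, right) in untreated 8505C. Dashed lines are the shares of all genes compared, 13.4% lower and 9.78% higher. Endothelial markers and cancer testis genes reach furthest to the right and metallothioneins and thyroid differentiation genes to the left, whereas the 31 proteasome subunits show no bar. Of the 7 endothelial markers 6 and of the 11 cancer testis genes 6 were under 1 TPM in SW1736, so the filter fixed their side. It likewise fixed the side of 3 of the 6 metallothioneins and 2 of the 5 thyroid differentiation genes, which were under 1 TPM in untreated 8505C.

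Some genes were listed at 0 throughout one line and clearly present in the other. In both SW1736 libraries 116 genes were listed at 0 while standing at 5 TPM or more in both 8505C libraries, 103 of them protein-coding. The reverse held for 61 genes, 55 of them protein-coding. In the first set, after the genes already described, the highest were EPB41L3, which encodes a membrane-cytoskeleton linker, at 399.6 TPM in untreated 8505C, LCE2A at 110.3, GNGT2 at 109, BEX1 at 100.5, KPRP at 87.9, LAMP3 at 81.8 and ABI3 at 65.6. In the second set they were CRIP1, a LIM domain gene, at 276 TPM in untreated SW1736, CDH13, which encodes T-cadherin, at 129, CD40, and H1F0, a linker histone gene, at 68.4. A value of 0 can also be a failed estimate, so it is given as listed. Counted over the untreated pair alone, 167 genes were listed at 0 in SW1736 and at 5 TPM or more in 8505C, and 89 the other way round. Within a line, between DMSO and DHT, 14 genes went from 0 to 5 TPM or more in SW1736 and 4 in 8505C.

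Several of these genes are neighbours, in stretches chosen after their values were seen. On chromosome 16, from 67029147 to 67159909 (hg38, 131 kb), 4 consecutive protein-coding genes were listed at 0 in both 8505C libraries. CBFB, which encodes the partner subunit of RUNX transcription factors, was at 52.6 and 42.1 TPM in SW1736, and C16orf70 at 17.9 and 16.8. B3GNT9, a glycosyltransferase gene, followed at 29.7 and 24.3 TPM, and TRADD, an adaptor of TNF receptor signalling, at 26.3 and 18.5. The next genes, FBXL8 and HSF4, were at 7.46 and 6.22 TPM in untreated SW1736 and at 0.0365 and 0.297 in 8505C. Expression then returned in both lines, with NOL3 at 15.2 and 27.8 TPM and E2F4, a cell cycle repressor, at 119 and 130.3. DNA copy number was not measured.

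**Figure D4:**
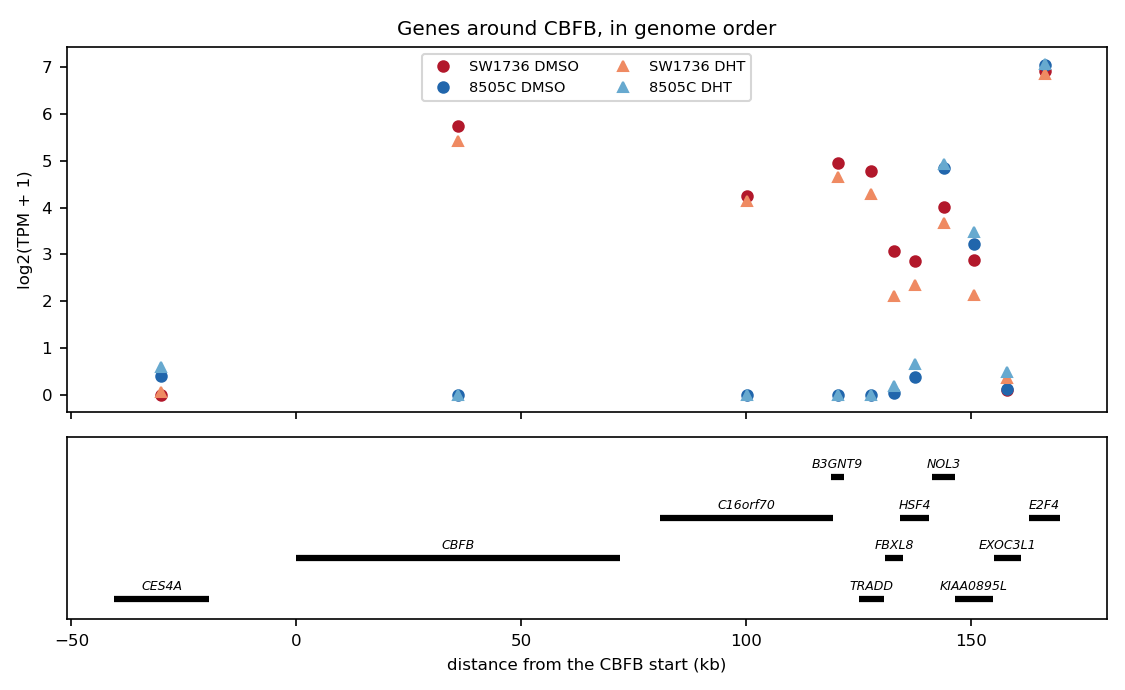
Expression of 11 genes around CBFB as log2(TPM + 1) in the 4 libraries (upper panel), placed by the middle of each gene in kb from the CBFB start, with the gene bodies below. CBFB, C16orf70, B3GNT9 and TRADD lie at 0 in both 8505C libraries (blue), FBXL8 and HSF4 near 0, and NOL3, KIAA0895L and E2F4 are expressed in both lines.

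On chromosome 7 the genes at 0 were not consecutive: COL1A2, SGCE and PEG10 were listed at 0 in 8505C, but CASD1, which lies between COL1A2 and SGCE, was at 7.11 and 6.74 TPM. GNG11, a G protein subunit gene nearby, was at 111 and 6.5 TPM. In the epidermal differentiation cluster of chromosome 1, whose genes build the cornified envelope of skin, LCE2A, KPRP and SPRR2D were present in 8505C at 110.3, 87.9 and 18.2 TPM and at most 0.137 TPM in SW1736. Of 46 protein-coding genes there 5 had a mean of at least 1 TPM, and 27 were listed at 0 in all 4 libraries. GNGT2 and ABI3, which overlap on chromosome 17, were both listed at 0 in SW1736, between the expressed genes SNF8 and ZNF652.

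Beyond single neighbourhoods, the median fold differed between chromosomes. Over 11647 protein-coding genes placed on chromosomes 1 to 22 and X the median fold was -0.05, with 9.90% at least 2-fold higher and 12.9% lower. The lowest medians were those of chromosomes X (-0.77, 389 genes), 10 (-0.67, 456 genes), 7 (-0.64, 527 genes) and 19 (-0.57, 859 genes). The highest were those of chromosomes 8 (0.58, 405 genes), 4 (0.58, 400 genes), 17 (0.44, 713 genes) and 6 (0.43, 598 genes). On chromosome X 36.2% of genes were at least 2-fold lower, and on chromosome 8 27.2% were at least 2-fold higher. In the DHT pair, taken relative to its own median, chromosome X was at -0.69, 10 at -0.61, 7 at -0.64 and 19 at -0.60, and chromosomes 8, 4, 17 and 6 were at 0.54, 0.76, 0.49 and 0.46.

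Ribosomal protein genes, whose levels were otherwise close, are given by chromosome as a pattern chosen after the values were seen. Of the 4 that were 2-fold higher in 8505C, RPL7, RPL8 and RPL30 lie on chromosome 8, and of the 4 lower ones RPL10, RPL36A and RPS4X lie on chromosome X. In the DHT pair RPL7, RPL8 and RPL30 were under 2-fold, with folds of 0.75, 0.58 and 0.53, and RPL10, RPL36A and RPS4X were at -1.62, -1.51 and -1.33. RPL8 was at 3699.6 and 7531 TPM and RPS4X at 3731 and 1792 TPM. In windows of 5 Mb with at least 10 genes, 55 of 413 had a median fold of 0.5 or more and 62 of -0.5 or less. The highest window was on chromosome 4 (median 1.24 over 15 genes) and the lowest on chromosome 10 (-1.47 over 13 genes). In windows of 10 Mb 46 of 285 were at 0.5 or more and 40 at -0.5 or less, and the extremes lay on chromosomes 8 (1.22 over 20 genes) and 7 (-1.13 over 19 genes). No copy number or karyotype was measured, so gene dosage and regulation cannot be told apart.

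**Figure D5:**
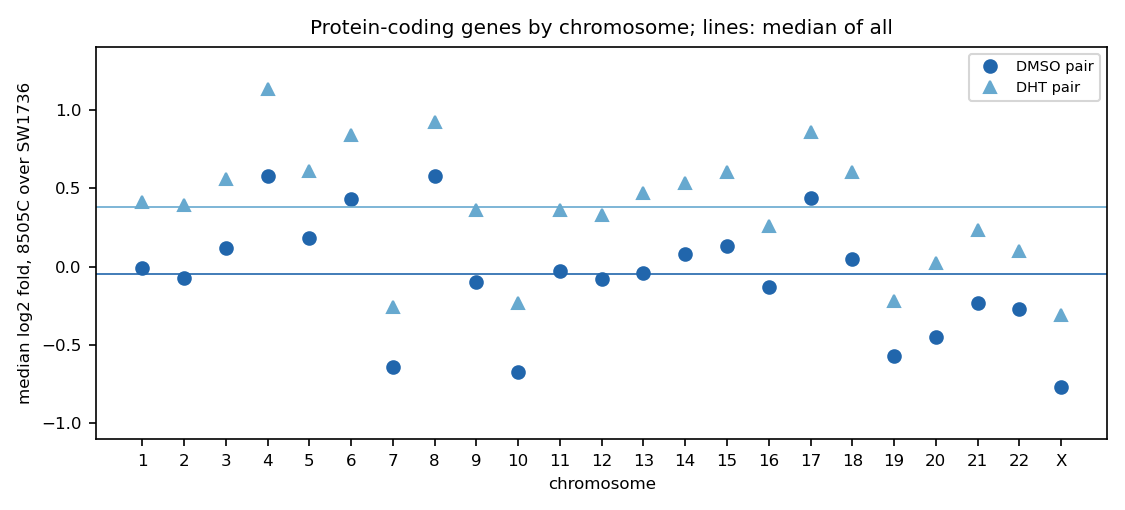
Median log2 fold of 8505C over SW1736 for the protein-coding genes of each chromosome, circles for the DMSO pair and triangles for the DHT pair, with horizontal lines at the medians of all genes (-0.05 and 0.38). The order of chromosomes is much alike in both pairs: X, 10, 7 and 19 lie lowest, and 4, 6, 8 and 17 highest.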

How the data were processed

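RNA was isolated with RNeasy Mini columns and libraries were made from 1 µg of total RNA with the Universal Plus mRNA-Seq kit, per the labels' protocols. The submitters' processing notes name bcl2fastq 2.20, StringTie and hg38, and the sources used here do not give the aligner, the annotation or the StringTie version. Per the file headers, each of the 4 tables deposited by the authors gives TPM, FPKM and coverage per gene and locus. TPM as deposited sums to 1000000 in each library, so a gain of abundant transcripts lowers all others. FPKM as deposited is scaled by fragments and length. The deposited coverage is a mean read depth, with no library scaling.

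Rows of one identifier were summed (1446 identifiers had several rows), and 25320 of 26485 identifiers were matched to RefSeq genes by symbol or synonym. The others held at most 0.736% of TPM. Folds used a pseudocount of 1 TPM and a DMSO mean of 1 TPM or more, and a 2-fold difference was counted, without a test, since each group had 1 library. Groups came from the labels. The script was tested on simulated data. Tools were Python 3.11.15, pandas 2.3.3, numpy 2.4.6 and matplotlib 3.10.9.

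The comparison, the 47 gene lists and the rule for naming genes were chosen with earlier results of these data known. Named were the 5 markers of the comparison, the 20 highest and 20 lowest folds at a mean of 20 TPM or more, the 10 most abundant genes of each DMSO library, and all members of the 2 thyroid lists. From every other list up to 6 genes each way past 2-fold with the largest folds and up to 2 under 2-fold with the highest mean could be named, with the top 10 genes of each line listed at 0 in the other and genes of a described stretch. Genes named outside this rule, chosen after their values were seen, were PAX8-AS1, SFTA3, NKX2-1-AS1, MBIP, MMP10, MMP12, TIMP1, CDKN1A, BBS2, NUP93, the marker genes under 1 TPM, the genes between and beside the stretches, the ribosomal protein genes and the non-coding RNAs of the closing section. Alternatives were other pseudocounts, filters, thresholds and scalings, FPKM, protein-coding genes, single-row genes and 10 Mb windows. Promoter shares of the gene sets were not used, because only 73.5% of the protein-coding genes 4-fold higher and 72.7% of those 4-fold lower had a promoter entry. Mitochondrially encoded genes were not analysed here, and some list members and 1 gene list are not reported here.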

Additional observations from a re-analysis of the deposited data

Results flagged for a closer look

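For 3 of the genes selected by the naming rule the difference between the lines had the opposite direction in the DHT pair, by more than 2-fold each way. The difference between the pairs was not tested, as each rests on 1 library a group. ADM, which encodes adrenomedullin, stood at 3.57 TPM in SW1736 against 68.5 in 8505C with DMSO, and 408 against 88.7 with DHT, a fold of 3.93 in the untreated pair and -2.19 in the DHT pair. ANKRD1, a target of YAP, stood at 15.6 TPM in SW1736 against 95.9 in 8505C with DMSO, and 408 against 87.9 with DHT, with folds of 2.54 and -2.20. EGR1, an immediate early transcription factor, stood at 2.62 TPM in SW1736 against 18.3 in 8505C with DMSO, and 2059.7 against 13.5 with DHT, with folds of 2.42 and -7.15. In each case the 8505C libraries lay close together and the SW1736 library with DHT was the high one. Over all genes compared, 27 were 2-fold apart in opposite directions in the pairs.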

How the results depend on the processing

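No paired analysis was possible because each group had 1 library, and for the same reason no library could be left out. The untreated lines had 3036 genes at least 2-fold apart. With a pseudocount of 5 TPM there were 1716 (768 higher and 948 lower), and with a mean of at least 5 TPM 2016 of 10446 genes, 824 of them higher. A 1.5-fold threshold gave 5730 (2417 higher and 3313 lower) and a 4-fold threshold 1069 (519 and 550). With a pseudocount of 0.1 TPM, no filter, centred folds, rescaled TPM, FPKM, protein-coding genes or single-row genes the total lay between 2464 and 3554, within 1.5 times. The scalings moved the median of all genes by less than 0.1. Of 329 named genes 2-fold apart, 261 stayed so with a pseudocount of 5 TPM and 306 with FPKM. None of these 329 changed sign under a pseudocount or scaling. Sign changes were not counted for the named genes under 2-fold. The median of the HOXC cluster turned to -0.86 at a mean of at least 5 TPM, where 1 member was left. Read numbers are unknown, so the precision of low values is not given.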

Other observations

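Some surface, calcium-binding and growth-factor-binding genes, a few of them also in the groups above, differed between the untreated lines as well. Of 19 measured cadherins and protocadherins 6 (31.6%) were at least 2-fold higher in 8505C and 9 (47.4%) lower, beside 9.78% and 13.4% of all genes. The median fold was -0.86. CDH5, among the 6, and CDH11, among the 9, were already described above. Of the 19, 5 were under 1 TPM in untreated SW1736 and 4 in untreated 8505C, so the filter fixed the direction of these. In the DHT pair 7 were higher and 5 lower with a median of 0.29, beside 0.36 for all genes in that pair. Of the 9 lower genes 5 were again 2-fold lower. Protocadherin 7 (PCDH7) was listed at 0 in SW1736 with DMSO and at 28.9 TPM in 8505C, and PCDH1 was at 86.3 TPM in SW1736 against 5.68 in 8505C with DMSO, and 55.9 against 5.14 with DHT, a fold of -3.71. Of 21 measured S100, annexin and galectin genes 7 (33.3%) were lower and 2 higher, beside 13.4% and 9.78% of all genes. S100A2, a calcium-binding gene of basal epithelia, was at 123 TPM in SW1736 against 13.6 in 8505C with DMSO, and 255 against 31.5 with DHT, whereas LGALS1 and ANXA2 were abundant in both lines, at 2825 and 2360.1 and at 2842 and 3559.7 TPM. Of 9 measured IGF binding protein genes IGFBP2 was furthest apart at 0.0137 TPM in SW1736 against 49.9 in 8505C with DMSO, and 1.14 against 50.0 with DHT, a fold of 5.65, and IGFBP6 was on the other side at 157 TPM in SW1736 against 38 in 8505C with DMSO, and 238 against 53 with DHT. Of 24 measured SWI/SNF subunits 1 was higher and 3 lower. In the DHT pair 9 were higher and 0 lower, beside 24.2% and 10.7% of all genes. SMARCA2, an ATPase subunit, was at 44.4 and 18.5 TPM in the DMSO pair and 19.5 and 17.6 with DHT. SMARCE1 was at 73 and 162 TPM with DMSO.

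Among long non-coding RNAs, 530 were compared, and 61 (11.5%) were at least 2-fold higher in untreated 8505C and 97 (18.3%) lower, with a median fold of -0.17. In the DHT pair 54 and 49 of these were 2-fold apart again. CRNDE, a transcript often found in tumours, was listed at 0 in both SW1736 libraries and at 14.6 and 14.3 TPM in 8505C, and LINC00707 was at 1.1 TPM in SW1736 against 59.1 in 8505C with DMSO, and 0.682 against 66.4 with DHT. UCA1 was listed at 0 in both 8505C libraries and at 11.8 and 13 TPM in SW1736, and SNHG18 was at 16.6 TPM in SW1736 against 0.0471 in 8505C with DMSO, and 14.2 against 0.0365 with DHT. These genes were chosen after their values were seen.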
